A study of Mus musculus with 10 samples.

Results

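Semaphorins, ephrins, Slits and netrins are guidance cues, and the genes of these ligands and of their receptors were followed in whole mouse hearts after forced endurance training. Protein-coding genes were chosen by symbol alone, as semaphorins of classes 3 to 7, plexins, neuropilins, ephrins, Eph receptors, Slits, Robo receptors, netrins, Unc5 receptors and Dcc. The rule found 69 genes among the 56748 identifiers of the count tables. RNA came from whole hearts with both atria of wild-type C57BL/6 mice, bought at 8 weeks of age. The training group (labelled Exercise, n = 5) ran on a treadmill for 8 weeks, on 5 days per week for 120 min at 15 m/min, after at least 2 weeks of rest and 1 week of acclimatization. The sedentary group (labelled Control, treatment Sedentary, n = 5) was of the same age and did not run. Each library is 1 heart. The sources used here do not give the hour of harvest.

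Guidance cues were first known from growing axons and also steer vessels, neural crest cells and the outflow tract in the developing heart. Most of the secreted class 3 semaphorins bind a neuropilin, which pairs with a plexin, whereas most membrane-bound semaphorins bind plexins directly. Ephrins and Eph receptor tyrosine kinases sit on touching cells and can signal in either direction, and the ephrin-B2 and EphB4 pair marks arteries and veins. Slits bind Robo receptors, and netrins bind Dcc, neogenin and the Unc5 receptors.

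The libraries held 29461697 to 39431030 gene counts, with a median of 34231778 in training and 37754308 in sedentary hearts (exact two-sided permutation test, p = 0.0238). The guidance genes took between 50751 and 63478 of these counts. Cardiomyocyte markers were at a summed level of 58375 to 63053 CPM in training and 61465 to 70029 CPM in sedentary hearts (CPM, counts scaled to a common library size after correction for composition). These ranges overlapped, and the training mean was the lower (exact two-sided permutation test, p = 0.0238, 0.155 after Benjamini-Hochberg adjustment over 13 lists), and 7 of the 8 markers were below 0 in log2 fold change. The level of atrial markers differed widely between hearts, and its part in the results on single genes was not tested beyond the fits given with it. The sum of 7 atrial markers lay between 5078 and 7651 CPM in training hearts and between 2805 and 6877 CPM in sedentary hearts (exact two-sided permutation test, p = 0.0794). All 7 had a log2 fold change above 0, and Sln and Dkk3 were called higher at an FDR below 0.1 in edgeR. As a mean of centred log2 CPM, these markers scored −1.0 in sedentary heart 2 and −0.85 in sedentary heart 5. Sedentary hearts 3 and 4 scored −0.15 and 0.011. Sedentary heart 1, at 0.39, lay within the training hearts, which scored between 0.052 and 0.65. By this score 4 of the 5 sedentary hearts lay below every training heart (exact two-sided permutation test of the groups, p = 0.0556). In RNA of a whole heart, fewer cells of a type and less RNA per cell cannot be told apart.

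Guidance genes were expressed at very unequal levels. Compared per length, Plxnb2 was the most abundant at 35.6 CPM per kilobase (lowest heart 31.8, highest 40.2). It encodes a receptor for class 4 semaphorins. Plxnd1, the receptor of Sema3e in endothelium, followed at 33.6 CPM per kilobase (lowest heart 28.3, highest 44.0), and the ranges of these 2 genes overlapped. The neuropilin Nrp1, a coreceptor for class 3 semaphorins and VEGF, was at 29.1 CPM per kilobase (lowest heart 22.7, highest 35.9). Next came the ephrin Efnb3 at 24.2 CPM per kilobase, the netrin Ntn1 at 22.0 and the semaphorin Sema4d, a plexin-B ligand, at 21.0, whose ranges also overlapped. The receptor genes that led their groups were Ephb4 (15.4 CPM per kilobase), Epha4 (11.2), the endothelial Robo4 (11.0) and Unc5b (5.80). Efna1 (14.8 CPM per kilobase) led the ephrin-A ligands and Slit3 (8.84) the Slits. A ligand and its receptor could be far apart. Sema3e was at 0.0987 CPM per kilobase beside its receptor Plxnd1 at 33.6, and the Sema7a receptor Plxnc1 was at 0.844 beside Sema7a at 12.4. Dcc, the classical netrin receptor, had 0 counts in all 10 hearts, which allows up to 0.0995 CPM in a single heart (3 counts in the smallest library, counting error only).

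**Figure D1:**
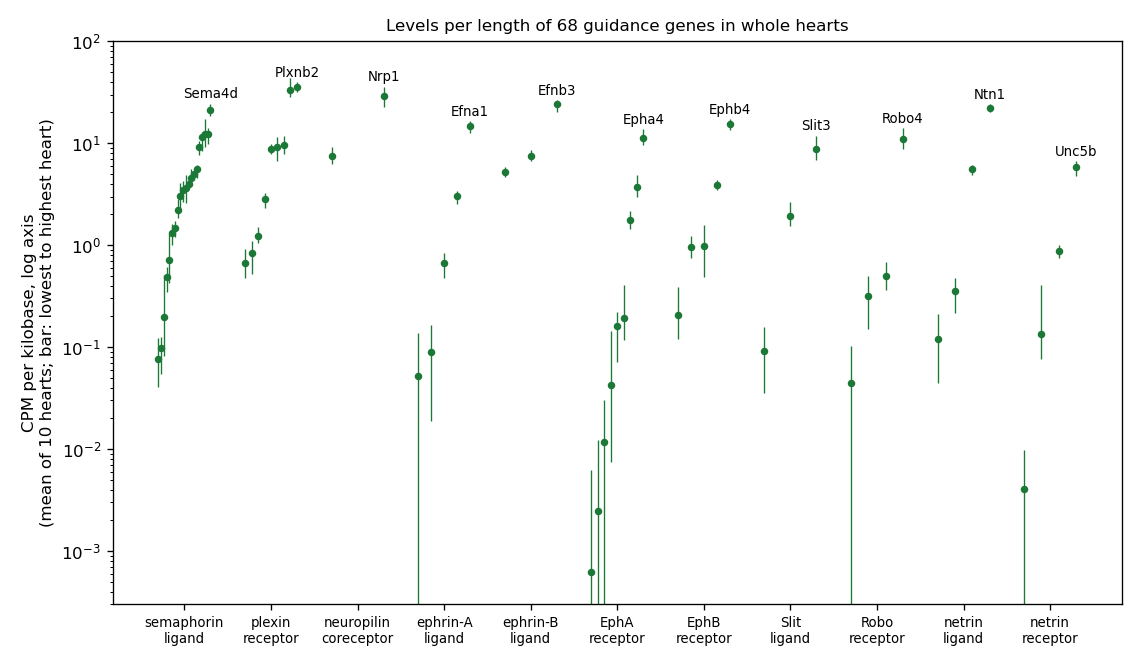
Mean level of each guidance gene with a count over all 10 hearts, in CPM per kilobase on a log axis, grouped by role. Bars run from the lowest to the highest heart, a bar that reaches the bottom edge marks a heart at 0, and the most abundant gene of each role is named (Plxnb2 at 35.6 CPM per kilobase is the highest).

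Of the 69 genes, 58 had enough counts to be tested. The other 11 (Sema4g, Efna3, Efna4, Epha5, Epha6, Epha8, Epha10, Robo3, Ntn5, Unc5d and Dcc) had at most 15 counts in any heart. The test of training against sedentary hearts was edgeR's quasi-likelihood test over 15454 genes, and genes were called at a false discovery rate (FDR, Benjamini-Hochberg adjustment over all genes) below 0.1. Of the 58 guidance genes, 9 were called, 4 higher and 5 lower after training. The share was 15.5%, against 7.01% of all genes tested (2.75% higher and 4.26% lower). Called genes were more frequent among abundant genes. At a mean of at least 5 CPM, a limit chosen after the values were seen, 9 of 40 guidance genes were called (22.5%) against 9.02% of all genes tested at that level. The median log2 fold change of the 58 genes was 0.090, with 37 above 0 and 21 below, against 0.00026 for all genes tested. The 49 genes that were not called lay between −0.22 and 0.58. The changes were small, from −0.54 for Sema7a to 0.32 for Sema3d among the called genes, and they passed in both directions within the semaphorins, the plexins and the EphA receptors. Without the correction for library composition, 13 guidance genes were called, 10 higher and 3 lower, with 7 of the 9 among them (8.85% of all genes). The median log2 fold change of all genes tested was then 0.053, against 0.00026 with the correction. With the correction, an unadjusted p under 0.05 in edgeR was found for 17 of the 58 and for 20.0% of all genes.

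None of the 9 called genes separated the groups completely, whereas of all 1084 called genes 54.0% did. Over the genes tested, 5.06% did not overlap between the groups, and Efnb1 was the only such gene among the 58. In 7 of the 9 called genes, sedentary heart 1 was the sedentary heart nearest to the training mean, and this was so in 43.4% of all called genes. With the atrial score added to the fit, edgeR called 0 of the 58 genes (9 had an unadjusted p under 0.05), while 0.912% of all genes passed. Leaving out sedentary hearts 2 and 5, the hearts lowest in atrial markers, which was chosen after the data were seen, also left 0 calls by edgeR (18 of 59 with an unadjusted p under 0.05), while 1.79% of all genes passed. The share of all genes with an unadjusted p under 0.05 was taken only in the edgeR fit of all 10 hearts without a score (20.0%). In the other fits these counts have no such share beside them. With 1 heart left out, the count was 0 without sedentary heart 2 (17 with an unadjusted p under 0.05 in edgeR, and 3.91% of all genes called). It was 2 without sedentary heart 3 (3.29% of all genes) and also 2 without sedentary heart 5 (4.88%), where these were Sema6c and Efnb2 and 0 of the 9 were left. It was 4 without sedentary heart 4 (4.30%), 1 without training heart 4 (3.29%) and 4 without training heart 3 (3.47%). Without training hearts 1, 2 or 5 it was 7, 8 and 6, with 4, 5 and 6 of the 9 among them (6.35%, 8.02% and 4.71% of all genes), and without sedentary heart 1 it was 11, with 8 of the 9 (9.58%). DESeq2's Wald test on all 10 hearts called 13 guidance genes, all 9 among them. Of the 13054 genes to which DESeq2 gave an adjusted p, 11.3% passed. In edgeR, 9 guidance genes were called with DESeq2's size factors (6.88% of all genes), with at least 10 counts in every library (7.82%), with counts of both strands (6.77%), without mitochondrial DNA genes (6.71%) and with the mouse number as a block (7.36%). The count was 8 without a filter on low counts, 7 of them among the 9 (3.55%), 8 with RSEM's expected counts, all among the 9 (6.21%), and 8 with an endothelial marker score in the fit, of which 5 were among the 9 and the others were Plxna3, Slit3 and Unc5b (7.91%).

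**Figure D2:**
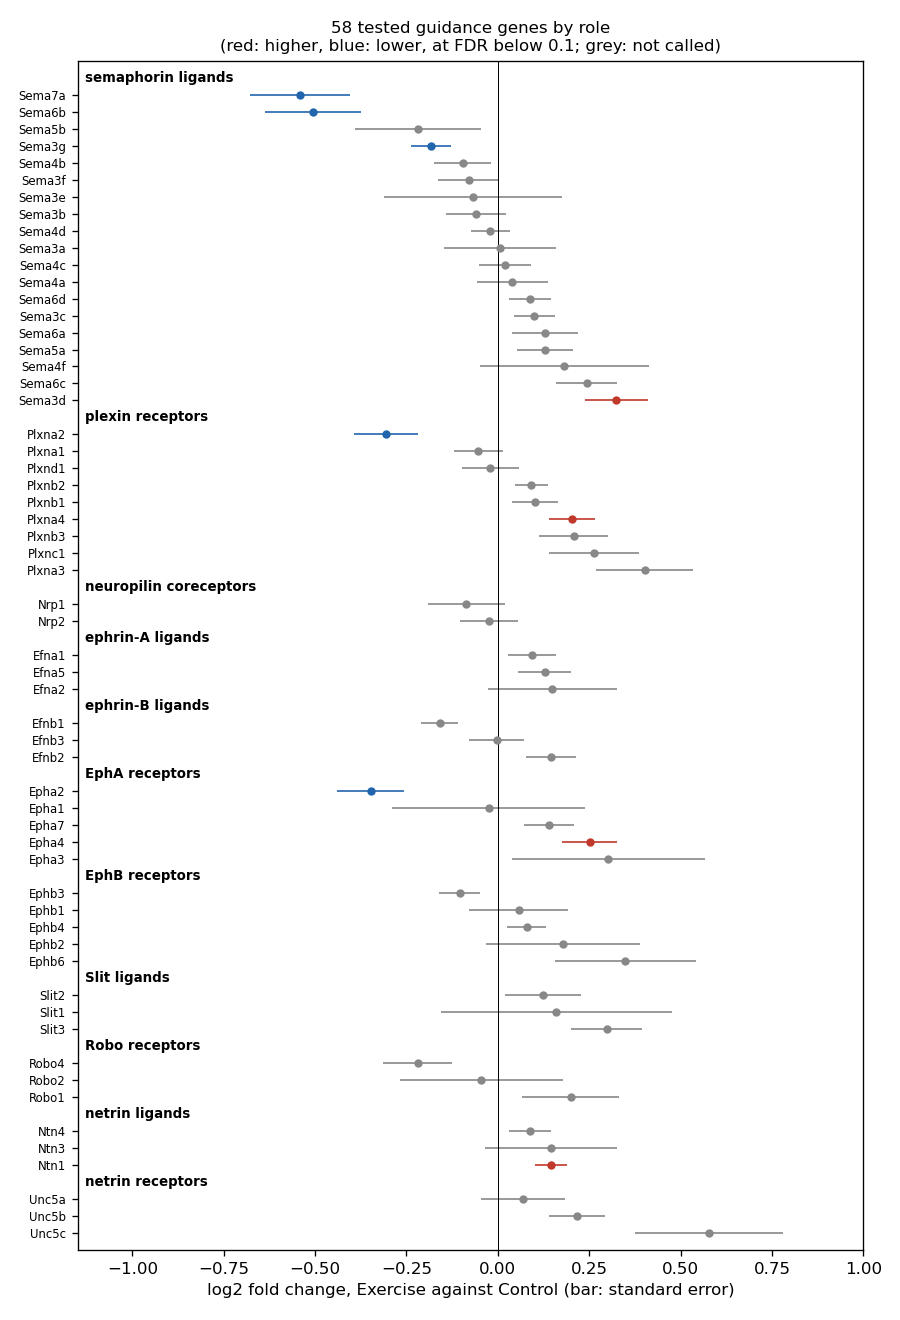
Log2 fold change of training (Exercise) against sedentary (Control) hearts for the 58 tested guidance genes, grouped by role, with the standard error as a bar. The 4 red genes were higher and the 5 blue genes lower at an FDR below 0.1, and Sema7a and Sema6b lie farthest below 0.

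The semaphorins were the largest group, with 19 of 20 genes tested, 1 higher and 3 lower. Sema7a (ENSMUSG00000038264, GRCm39 chromosome 9, 57847375 to 57870151, plus strand) encodes a GPI-anchored semaphorin that binds plexin C1 and integrin beta 1. It was at 30.4, 29.3, 31.7, 29.3 and 40.7 CPM in training hearts 1 to 5 and at 30.3, 49.9, 48.8, 49.9 and 55.7 CPM in sedentary hearts 1 to 5. All training hearts except heart 5 were near 30 CPM, and so was sedentary heart 1, while the other sedentary hearts lay above every training heart. The means were 32.3 ± 4.79 CPM (SD, n = 5) and 46.9 ± 9.69 CPM (SD, n = 5), giving a log2 fold change of −0.54 (SE 0.137, edgeR adjusted p = 0.0481), where SE is the standard error, so that Sema7a fell by 31.2%. The call held in 5 of the 10 fits without 1 heart and was lost without training hearts 3 or 4 or sedentary hearts 2, 3 or 5 (edgeR adjusted p between 0.101 and 0.115). With the atrial score in the fit the log2 fold change was −0.28 (edgeR adjusted p = 0.470). Its receptors did not pass: Plxnc1 had a log2 fold change of 0.26 (SE 0.124, edgeR adjusted p = 0.252) and Itgb1 of −0.01.

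Sema6b (ENSMUSG00000001227, GRCm39 chromosome 17, 56430078 to 56449459, minus strand), a transmembrane semaphorin and ligand of the plexins A2 and A4, was at 8.75, 9.99, 8.97, 11.0 and 12.9 CPM in training hearts 1 to 5 and at 10.2, 15.9, 14.8, 15.6 and 16.7 CPM in sedentary hearts 1 to 5. As for Sema7a, sedentary heart 1 lay among the training hearts and apart from the other sedentary hearts, which did not overlap with the training hearts. The log2 fold change was −0.51 (SE 0.131, edgeR adjusted p = 0.0515), from 14.6 ± 2.56 CPM in sedentary to 10.3 ± 1.69 CPM in training hearts (mean ± SD, n = 5 each). This call was kept in 5 of the 10 fits and lost without training heart 3 or sedentary hearts 2, 3, 4 or 5 (edgeR adjusted p between 0.105 and 0.127). Adding the atrial score gave −0.25 (edgeR adjusted p = 0.473). Sema3g (ENSMUSG00000021904, GRCm39 chromosome 14, 30939808 to 30952309, plus strand), a secreted semaphorin of arterial endothelium, was lower by less. Training hearts 1 to 5 were at 20.4, 23.2, 22.5, 24.1 and 24.8 CPM and sedentary hearts 1 to 5 at 26.9, 26.3, 26.1, 24.7 and 26.5 CPM, so that training heart 5 lay just above sedentary heart 4. Its log2 fold change was −0.18 (SE 0.0540, edgeR adjusted p = 0.0814), from 26.1 ± 0.839 CPM in sedentary to 23.0 ± 1.69 CPM in training hearts (mean ± SD, n = 5 each). It was kept in 2 of the 10 fits and lost without training hearts 1, 2, 3 or 4 or sedentary hearts 1, 2, 3 or 5 (edgeR adjusted p between 0.101 and 0.164). With library totals alone it was also lost (−0.13, edgeR adjusted p = 0.235). With the atrial score it was −0.16 (edgeR adjusted p = 0.374). The 10 endothelial markers went both ways, with 4 above 0 and 6 below, from −0.23 (Esam) to 0.26 (Vwf), and a median of −0.06. Tie1 and Esam were called lower. The sum of the 10 lay between 1238 and 1408 CPM in training and between 1345 and 1411 CPM in sedentary hearts (exact two-sided permutation test, p = 0.690). With an endothelial score in the fit Sema3g was not called (−0.16, edgeR adjusted p = 0.158).

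Sema3d (ENSMUSG00000040254, GRCm39 chromosome 5, 12433124 to 12638929, plus strand), a secreted semaphorin of the developing heart and its veins, was the only semaphorin called higher in the edgeR fit of all 10 hearts. It was at 8.24, 8.65, 9.96, 8.81 and 9.06 CPM in training hearts 1 to 5 and at 8.32, 6.28, 7.40, 7.31 and 6.36 CPM in sedentary hearts 1 to 5. Only sedentary heart 1 reached into the training range. The log2 fold change was 0.32 (SE 0.0859, edgeR adjusted p = 0.0567), from 7.13 ± 0.844 CPM in sedentary to 8.94 ± 0.642 CPM in training hearts (mean ± SD, n = 5 each), an increase of 25.2%. Sema3d was called in 5 of the 10 fits without 1 heart and lost without training hearts 3, 4 or 5 or sedentary hearts 2 or 5 (edgeR adjusted p between 0.104 and 0.137). Its log2 fold change with the atrial score was 0.15 (edgeR adjusted p = 0.485). The other 15 tested semaphorins lay between −0.22 (Sema5b) and 0.24 (Sema6c) without passing. Sema6c, another class 6 semaphorin, was called by DESeq2, with library totals alone, with the mouse number as a block and without sedentary heart 1 or 5. Among them, Sema4d, the most abundant semaphorin per length, ranged from 38.5 to 40.4 CPM in training and 35.1 to 43.6 CPM in sedentary hearts, giving a log2 fold change of −0.02 (SE 0.0534, edgeR adjusted p = 0.871).

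**Figure D3:**
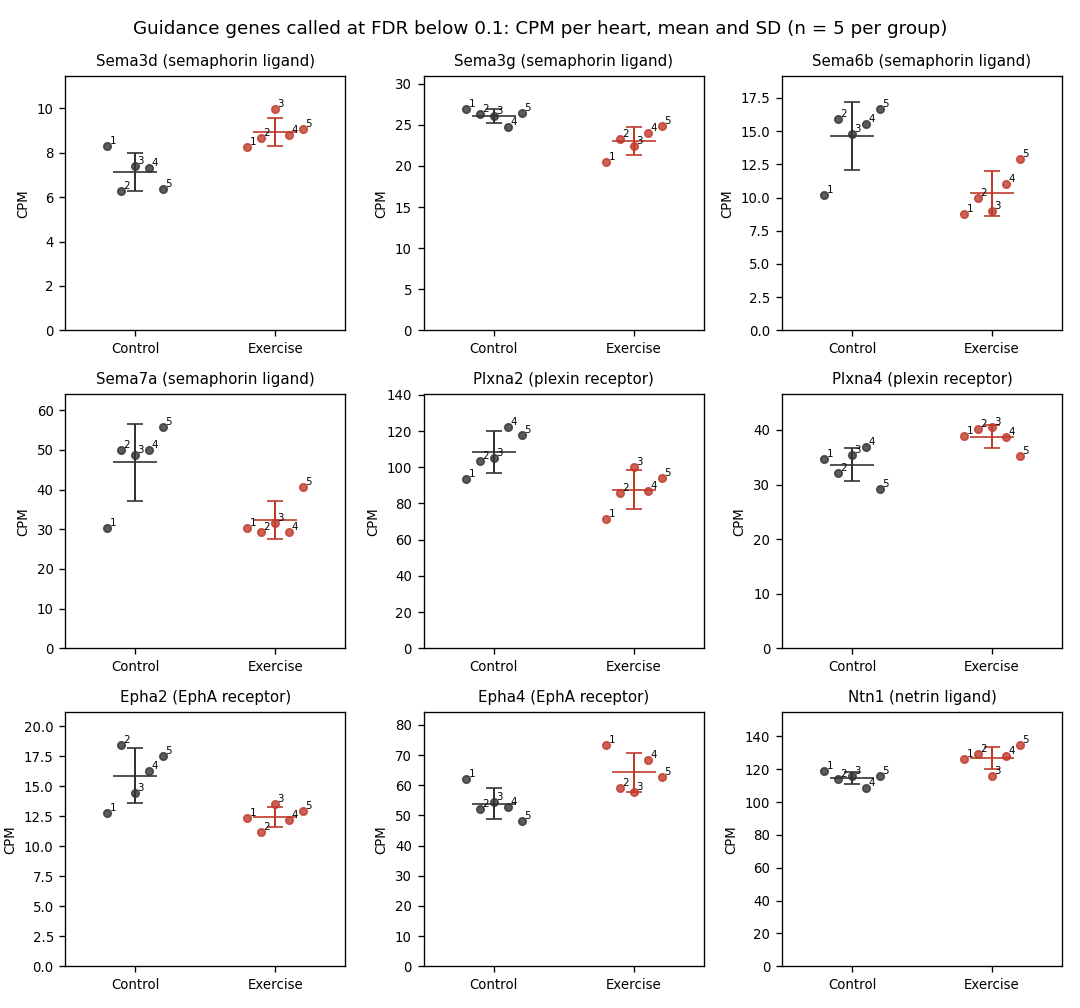
CPM per heart of the 9 called guidance genes, with group mean and SD (n = 5) and the heart number beside each point; each axis starts at 0. Sedentary (Control) heart 1 lies nearest to the training (Exercise) mean in 7 of the 9 genes, as for Sema7a at 30.3 CPM.

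Of the 9 plexins, all were tested, and the A-type plexins moved in both directions. Plxna2 (ENSMUSG00000026640, GRCm39 chromosome 1, 194300526 to 194499177, plus strand), a receptor for class 6 semaphorins that is known from cardiac neural crest, was at 71.5, 85.6, 99.9, 86.9 and 94.0 CPM in training hearts 1 to 5 and at 93.3, 103, 105, 122 and 118 CPM in sedentary hearts 1 to 5. Only training hearts 3 and 5 reached the level of the lowest sedentary heart, heart 1. Plxna2 fell by 19.1%, with a log2 fold change of −0.31 (SE 0.0869, edgeR adjusted p = 0.0705), from 108 ± 11.7 CPM in sedentary to 87.6 ± 10.7 CPM in training hearts (mean ± SD, n = 5 each). The call was kept in 3 of the 10 fits and lost without training hearts 1, 2 or 4 or sedentary hearts 2, 3, 4 or 5 (edgeR adjusted p between 0.102 and 0.151). It was also lost with library totals alone (−0.25, edgeR adjusted p = 0.113) and with the endothelial score in the fit (−0.26, edgeR adjusted p = 0.125). Its log2 fold change hardly moved with the atrial score, at −0.28 (edgeR adjusted p = 0.344).

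Plxna4 (ENSMUSG00000029765, GRCm39 chromosome 6, 32121203 to 32565193, minus strand), a partner of the neuropilins, rose. The training hearts 1 to 5 were at 38.9, 40.2, 40.5, 38.8 and 35.2 CPM and the sedentary hearts 1 to 5 at 34.7, 32.1, 35.5, 36.9 and 29.2 CPM. Training heart 5 alone lay within the sedentary range. Its log2 fold change was 0.20 (SE 0.0625, edgeR adjusted p = 0.0932), from 33.7 ± 3.04 CPM in sedentary to 38.7 ± 2.10 CPM in training hearts (mean ± SD, n = 5 each). It was kept in 3 of the 10 fits and lost without training hearts 1, 2, 3 or 4 or sedentary hearts 2, 3 or 5 (edgeR adjusted p between 0.122 and 0.191). With RSEM's expected counts and without a filter on low counts it was not called, and with the atrial score it was at 0.10 (edgeR adjusted p = 0.600). The other 7 plexins were not called. Of these Plxnb2 ranged from 169.8 to 188 CPM in training and 157 to 177 CPM in sedentary hearts, with a log2 fold change of 0.09 (SE 0.0453, edgeR adjusted p = 0.280), and Plxna3 had the highest log2 fold change, 0.40 (SE 0.133, edgeR adjusted p = 0.116). Both neuropilins were tested, and neither passed. Nrp1 was at 98.2 ± 9.73 CPM (SD, n = 5) in training and 104 ± 18.5 CPM (SD, n = 5) in sedentary hearts, giving a log2 fold change of −0.09 (SE 0.106, edgeR adjusted p = 0.705). Nrp2 lay within a narrow range of 46.1 to 47.7 CPM in training hearts and between 39.8 and 59.5 CPM in sedentary hearts (log2 fold change −0.03).

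Eph receptors of the A type changed in both directions, with 1 of the 5 tested genes (of 9) higher and 1 lower. Epha2 (ENSMUSG00000006445, GRCm39 chromosome 4, 141028540 to 141056695, plus strand), the main receptor of ephrin-A1, was at 12.4, 11.2, 13.5, 12.2 and 12.9 CPM in training hearts 1 to 5 and at 12.7, 18.4, 14.5, 16.3 and 17.5 CPM in sedentary hearts 1 to 5. Training hearts 3 and 5 exceeded sedentary heart 1, and all training hearts lay below the other sedentary hearts. The log2 fold change was −0.35 (SE 0.0916, edgeR adjusted p = 0.0547), from 15.9 ± 2.30 CPM in sedentary to 12.5 ± 0.851 CPM in training hearts (mean ± SD, n = 5 each), so that Epha2 fell by 21.5%. It held in 6 of the 10 fits without 1 heart and was lost without training heart 4 or sedentary hearts 2, 4 or 5 (edgeR adjusted p between 0.108 and 0.120). The atrial score brought it to −0.18 (edgeR adjusted p = 0.499). Epha4 (ENSMUSG00000026235, GRCm39 chromosome 1, 77343822 to 77492816, minus strand), which binds ephrins of both types, was the most abundant EphA receptor and rose. Training hearts 1 to 5 were at 73.3, 59.1, 57.8, 68.2 and 62.8 CPM and sedentary hearts 1 to 5 at 62.2, 52.1, 54.5, 52.8 and 48.1 CPM. Sedentary heart 1 again lay inside the training range, above training hearts 2 and 3. The log2 fold change was 0.25 (SE 0.0749, edgeR adjusted p = 0.0828), from 53.9 ± 5.17 CPM in sedentary to 64.2 ± 6.47 CPM in training hearts (mean ± SD, n = 5 each). This was kept in 3 of the 10 fits and lost without training hearts 1, 4 or 5 or sedentary hearts 2, 3, 4 or 5 (edgeR adjusted p between 0.125 and 0.178). It was lost, too, with the endothelial score in the fit (0.22, edgeR adjusted p = 0.167), and with the atrial score it was 0.15 (edgeR adjusted p = 0.526). Of the reads on Epha1, 69.5% lay on the opposite strand, where Zyx is annotated, so that only its strand-specific count was usable (log2 fold change −0.03).

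None of the 6 tested ephrins (of 8) and none of the 5 EphB receptors was called. Efnb1 (ENSMUSG00000031217, GRCm39 chromosome X, 98179680 to 98205454, plus strand), a transmembrane ephrin on the X chromosome, came closest. It was at 21.4, 23.5, 22.0, 22.1 and 21.1 CPM in training hearts 1 to 5 and at 27.2, 24.0, 23.9, 24.4 and 23.6 CPM in sedentary hearts 1 to 5. Every training heart lay below every sedentary heart, and sedentary heart 1 stood above the rest. The log2 fold change was −0.16 (SE 0.0512, edgeR adjusted p = 0.105), from 24.6 ± 1.45 CPM in sedentary to 22.0 ± 0.918 CPM in training hearts (mean ± SD, n = 5 each), short of the threshold. DESeq2's Wald test called Efnb1 on all 10 hearts, and edgeR called it without training heart 2 (adjusted p = 0.0743). The arterial ligand Efnb2 and the venous receptor Ephb4 had log2 fold changes of 0.14 and 0.08 (edgeR adjusted p = 0.258 and 0.447). Ephb4 ranged from 60.4 to 71.9 CPM in training and 56.8 to 64.9 CPM in sedentary hearts. Efnb3 was at 74.6 ± 8.04 CPM (SD, n = 5) and 74.7 ± 6.28 CPM (SD, n = 5), and its log2 fold change was −0.00303 with a standard error of 0.0758. For Efna1, the ligand of Epha2, the values were 21.0 ± 1.63 CPM (SD, n = 5) and 19.7 ± 1.49 CPM (SD, n = 5), giving a log2 fold change of 0.09 (SE 0.0662, edgeR adjusted p = 0.472).

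Of the 3 netrins tested (of 4) Ntn1 was called, and of the 3 Unc5 receptors tested none was. Ntn1 (ENSMUSG00000020902, GRCm39 chromosome 11, 68100190 to 68291662, minus strand) encodes the secreted netrin-1. It was at 126, 129, 116, 128 and 135 CPM in training hearts 1 to 5 and at 119, 114, 116, 109 and 116 CPM in sedentary hearts 1 to 5. Training heart 3 alone lay within the sedentary range. Ntn1 was higher by 10.6%, giving a log2 fold change of 0.15 (SE 0.0440, edgeR adjusted p = 0.0867), from 115 ± 3.85 CPM in sedentary to 127 ± 6.87 CPM in training hearts (mean ± SD, n = 5 each). The call was kept in 2 of the 10 fits and lost without training hearts 1, 2, 4 or 5 or sedentary hearts 2, 3, 4 or 5 (edgeR adjusted p between 0.111 and 0.183). Without a filter on low counts (0.14, edgeR adjusted p = 0.173) and with the endothelial score (0.14, edgeR adjusted p = 0.139) it was not called either. With the atrial score in the fit its log2 fold change was 0.17 (edgeR adjusted p = 0.270), and it was the only one of the 9 that was farther from 0 there. Unc5b, an endothelial netrin receptor, was at 33.8 ± 3.97 CPM (SD, n = 5) in training and 29.1 ± 1.82 CPM (SD, n = 5) in sedentary hearts, giving a log2 fold change of 0.22 (SE 0.0760, edgeR adjusted p = 0.136), and passed in DESeq2 and without training heart 1, among other settings. Unc5c had the highest log2 fold change of all 58 genes, 0.58 (SE 0.202, edgeR adjusted p = 0.135), at under 1 CPM on average in either group.

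The 3 Slits and the 3 Robo receptors tested (of 4) gave no call. Slit3 (ENSMUSG00000056427, GRCm39 chromosome 11, 35011789 to 35602786, plus strand), a secreted ligand that the heart and diaphragm need to form, was at 43.2, 40.5, 60.4, 53.7 and 50.0 CPM in training hearts 1 to 5 and at 44.4, 35.0, 42.0, 41.9 and 38.2 CPM in sedentary hearts 1 to 5. Training hearts 3, 4 and 5 lay above all sedentary hearts, and the others overlapped with them. For Slit3 the log2 fold change was 0.30 (SE 0.0977, edgeR adjusted p = 0.113), from 40.3 ± 3.69 CPM in sedentary to 49.6 ± 8.02 CPM in training hearts (mean ± SD, n = 5 each). Slit3 was called by DESeq2, without training heart 1 or 2 or sedentary heart 1, and under further settings, and its log2 fold change with the atrial score was 0.10 (edgeR adjusted p = 0.712). Robo4, the Robo receptor of endothelium, ranged from 31.7 to 41.2 CPM in training and 34.8 to 48.8 CPM in sedentary hearts, giving a log2 fold change of −0.22 (SE 0.0950, edgeR adjusted p = 0.219). It was called in 1 fit, without sedentary heart 1.

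**Figure D4:**
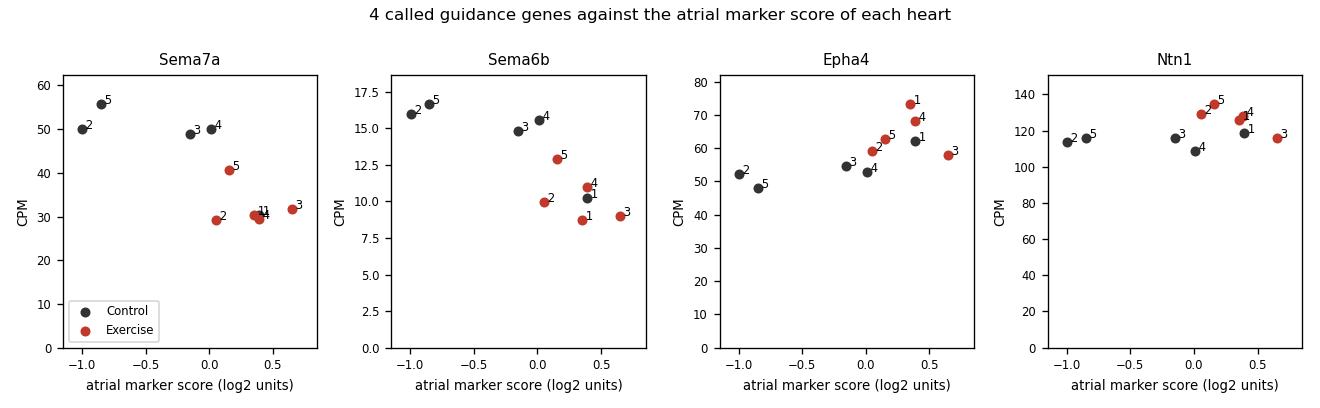
CPM of 4 called guidance genes against the atrial marker score of each heart (mean centred log2 CPM of 7 atrial markers), with sedentary (Control) hearts in black, training (Exercise) hearts in red and heart numbers beside the points. Sedentary heart 1, at an atrial score of 0.39, lies among the training hearts in score and, for all 4 genes, within their range in CPM. For Ntn1 only training heart 3 is lower.

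**Figure D5:**
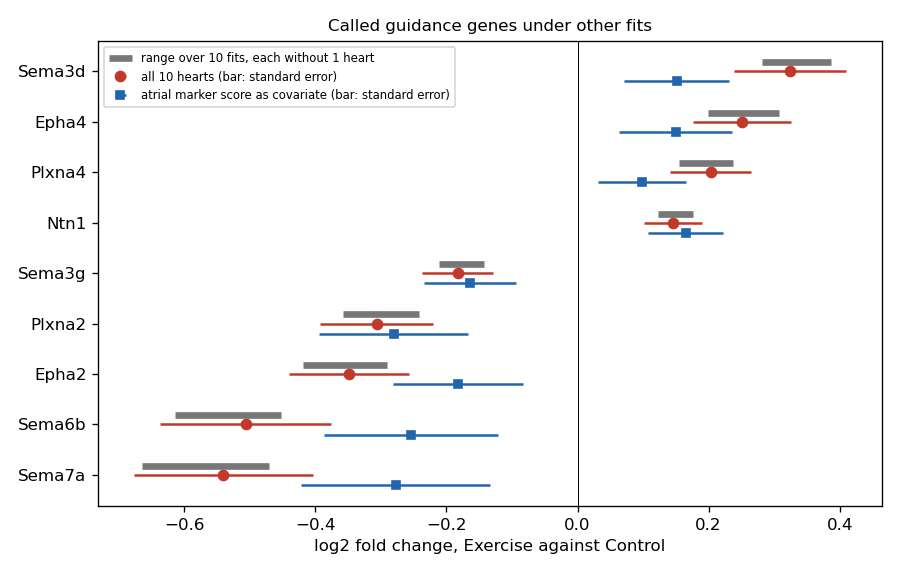
Log2 fold change of the 9 called guidance genes with all 10 hearts (red, standard error as a bar), with the atrial score in the fit (blue, standard error) and over the 10 fits that left out 1 heart (grey range). All ranges keep their sign, and Sema7a moves from −0.54 to −0.28 with the atrial score.

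RefSeq promoter windows (from a table of build GRCm38), from 250 bases before to 50 after a transcript start, were found for 7 of the 9 called genes (8 windows), and each window had 1 exact match on GRCm39, whose coordinates are given. Ntn1 and Plxna4 had none. The windows of 2 genes that fell and 2 that rose are shown, so that both directions can be read beside each other, 5′ to 3′ on the gene's strand. Promoter motifs were searched on both strands, and overlapping matches were allowed. GGGCGG is the GC box. The core of the CCAAT box was searched by these letters. TATAAA is the TATA box, and the E-box CACGTG is bound by clock factors. Capitals mark the matches, which read CCGCCC or ATTGG where the motif lies on the opposite strand.
Sema7a, chr9:57847145-57847444, plus strand: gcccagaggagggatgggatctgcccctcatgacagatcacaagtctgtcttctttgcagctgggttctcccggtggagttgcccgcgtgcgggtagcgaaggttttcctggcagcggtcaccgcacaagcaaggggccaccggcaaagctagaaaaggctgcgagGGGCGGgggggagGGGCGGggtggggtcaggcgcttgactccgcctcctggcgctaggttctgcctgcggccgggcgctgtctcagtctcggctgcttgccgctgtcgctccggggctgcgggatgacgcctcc
Epha2, chr4:141028282-141028581, plus strand: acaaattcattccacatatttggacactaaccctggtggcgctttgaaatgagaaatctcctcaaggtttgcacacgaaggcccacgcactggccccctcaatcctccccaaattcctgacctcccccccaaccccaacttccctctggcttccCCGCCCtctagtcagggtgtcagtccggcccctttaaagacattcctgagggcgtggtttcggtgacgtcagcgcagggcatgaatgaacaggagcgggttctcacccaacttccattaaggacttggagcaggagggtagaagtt
Epha4, chr1:77491676-77491975, minus strand: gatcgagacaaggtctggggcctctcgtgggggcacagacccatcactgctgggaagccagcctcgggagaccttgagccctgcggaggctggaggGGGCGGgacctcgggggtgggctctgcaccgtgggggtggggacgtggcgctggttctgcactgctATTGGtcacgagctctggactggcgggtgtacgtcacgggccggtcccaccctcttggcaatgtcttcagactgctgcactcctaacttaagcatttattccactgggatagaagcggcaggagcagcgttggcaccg
Sema3d, chr5:12432883-12433182, plus strand: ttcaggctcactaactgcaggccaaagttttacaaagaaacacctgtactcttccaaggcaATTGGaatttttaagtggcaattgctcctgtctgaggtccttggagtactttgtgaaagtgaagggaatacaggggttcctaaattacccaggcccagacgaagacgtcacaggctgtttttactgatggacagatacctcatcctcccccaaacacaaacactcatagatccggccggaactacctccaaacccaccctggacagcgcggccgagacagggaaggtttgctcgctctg
GGGCGG was found in 7 of the 8 windows, against 35.7% of the 32851 windows of all genes, and CCAAT in 3 against 37.4%. Sema6b was counted with more than 1 window. The windows of all genes were not limited to genes expressed in the heart, and the share among guidance genes not called was not taken. Neither CACGTG (7.15% of all windows) nor TATAAA (13.6%) occurred in the 8 windows. These are letter matches in short windows and say nothing of binding.

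A list of 56 intracellular effectors, coreceptors and cofactors of these pathways was followed as well. Of the 54 tested, 5 were called (9.26%, against 7.01% of all genes), 4 higher and 1 lower, and the median log2 fold change was 0.017. Neo1, the netrin and RGM receptor neogenin, was at 107.1 ± 2.52 CPM (SD, n = 5) in training and 97.8 ± 5.03 CPM (SD, n = 5) in sedentary hearts, giving a log2 fold change of 0.13 (SE 0.0413, edgeR adjusted p = 0.0969). Its ligand Rgmb, which is also a BMP coreceptor, was at 29.0 ± 0.726 CPM (SD, n = 5) in training and 24.6 ± 1.62 CPM (SD, n = 5) in sedentary hearts, giving a log2 fold change of 0.24 (SE 0.0501, edgeR adjusted p = 0.0237). Flrt2, a membrane protein that binds Unc5 receptors, had a log2 fold change of 0.41 (SE 0.129, edgeR adjusted p = 0.0957). Dpysl3, of the collapsin response mediators that act below semaphorin receptors, was at 52.7 ± 3.81 CPM (SD, n = 5) in training and 44.0 ± 1.74 CPM (SD, n = 5) in sedentary hearts, giving a log2 fold change of 0.26 (SE 0.0519, edgeR adjusted p = 0.0216). Srgap2, of the Slit-Robo GTPase-activating proteins, was lower, at −0.18 (SE 0.0497, edgeR adjusted p = 0.0651). Of the 5 called effector genes, Dpysl3, Rgmb and Srgap2 did not overlap between the groups, and 54.0% of all called genes did not either. The VEGF receptor Kdr, which acts with neuropilin-1, had a log2 fold change of −0.09 (SE 0.0548, edgeR adjusted p = 0.403). With the atrial score in the fit edgeR called 0 of the 54, while 0.912% of all genes passed. In that fit 8 of the 54 had an unadjusted p under 0.05, a share not taken over all genes. With 1 heart left out edgeR called between 2 and 7. It called 2 without training heart 3 or 5 or sedentary heart 2 (3.47%, 4.71% and 3.91% of all genes). The count was 3 without training heart 1 or 4 or sedentary heart 3 or 5 (6.35%, 3.29%, 3.29% and 4.88% of all genes).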

How the data were processed

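RNA sequencing libraries of 10 whole hearts, directional and made from poly-A RNA, were read as single reads in 1 sequencing pool. Alignment by the authors was to GRCm39 with STAR 2.7.10a, and the counts they deposited are of uniquely mapped reads, for each gene and strand. The authors also deposited expected counts, TPM and FPKM from RSEM 1.3.3, whose strand setting is not given in the sources used here. FPKM values, also deposited by the authors, were not used, and RSEM's TPM, deposited by the authors, served only to check the order of levels. Reverse-strand counts were used, at least 94.9% of counts on either strand. Reads in the 4 lines that are no gene stayed out of library sizes: multimapping reads were at most 19.2%, reads on no gene at most 4.89% and ambiguous reads at most 0.998% of all reads. Reads shared by genes that overlap on 1 strand are not counted, and single-read counts carry no molecular identifiers.

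Symbols came from GENCODE M39 by Ensembl identifier (56017 of 56748 matched). R 4.3.3 and edgeR 4.0.16 were used. The filterByExpr filter, TMM factors and the quasi-likelihood F test were run over all genes, with Benjamini-Hochberg adjustment and an FDR threshold of 0.1, the threshold of the study, which used DESeq2. CPM use TMM-corrected library sizes, and levels per length are CPM per kilobase of RSEM's effective length. Scores used log2 CPM with a prior count of 2. Standard errors are the fold change over the square root of the F statistic. The steps were tested on simulated data. The guidance genes, marker lists and alternatives were chosen with earlier results of these data known. Values in every heart are given for guidance genes that were called or did not overlap at a mean of at least 1 CPM, and the most abundant gene of each role is named. DESeq2 1.42.0 on the same filtered genes was an alternative, among 11 others (normalization, filters, kind of count, replicate block, covariates, threshold). The labels call each library a mouse, so that errors are between animals. No pair of hearts in a group was alike within counting noise (chi-square per degree of freedom of at least 6.16). Deviations from the group means correlated between hearts of the same number by −0.097 to 0.16, so that the numbers were not used as pairs.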

Additional observations from a re-analysis of the deposited data

Results flagged for a closer look

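Of 42 groups of 5 hearts checked, 4 held a heart that stood far from the other 4, by Dixon's gap over the range of the group, and chance gives about 1 in 20 groups. For Sema6b, sedentary heart 1 was at 10.2 CPM, below the other sedentary hearts. For Sema7a, sedentary heart 1 was at 30.3 CPM, below the other sedentary hearts, and training heart 5 was at 40.7 CPM, above the other training hearts. For Efnb1, sedentary heart 1 was at 27.2 CPM, above the other sedentary hearts.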

How the results depend on the processing

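The 9 called guidance genes kept their direction under all alternatives tried. At an FDR below 0.05, 1 was left (Sema7a), and the share of all genes at that threshold was not taken. The count was 0 with the atrial score in the fit and 0 without sedentary hearts 2 and 5 (edgeR, 9 of 58 and 18 of 59 genes with an unadjusted p under 0.05), and between 0 and 11 with 1 heart left out. Of all genes, 0.912% passed with the atrial score, 1.79% without sedentary hearts 2 and 5, and 3.29% to 9.58% with 1 heart left out. The cause of these losses was not tested, and fits with fewer hearts also have fewer degrees of freedom. In the other fits 8 to 13 guidance genes were called, which held 5 (endothelial score) to 9 of the 9 genes. With the mouse number as a replicate block, 9 were called, 7 of them shared, with Sema3g and Ntn1 lost and Sema6c and Slit3 gained, and 3 of 10 hearts correlated best with the heart of their own number. The effector list, with 5 calls, had 2 at an FDR below 0.05, again without a share of all genes. It had 8 with library totals alone, where 8.85% of all genes were called and the median log2 fold change of all genes was 0.053. It had 0 with the atrial score and 0 without sedentary hearts 2 and 5 (edgeR, 8 with an unadjusted p under 0.05 in each), and 2 to 7 with 1 heart left out. The share of all genes with an unadjusted p under 0.05 was not taken in these alternative fits. With RSEM's TPM, the most abundant gene was the same in all 11 roles.

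The log2 fold changes of Sema4d and Efnb3, both near 0, changed sign. For Sema4d it was 0.0345 with library totals alone, 0.0742 with the atrial score, 0.00955 without sedentary heart 2 and 0.0324 without sedentary hearts 2 and 5. For Efnb3 it was 0.0515, 0.00788 with expected counts, 0.00133 without mitochondrial DNA genes, 0.0106 with the atrial score and 0.00346 without sedentary hearts 2 and 5, and between 0.00478 and 0.0581 without training heart 2 or 3 or sedentary heart 2, 3 or 4 (0.00814, 0.00994 and 0.0338 among them). The lowest values with 1 heart left out were −0.0666 and −0.0490. Genes under about 1 CPM had standard errors of up to 0.316, so that small changes could not be detected in them.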

Other observations

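The guidance genes are made by many cell types of the heart, and markers of 12 groups of cells were counted with the same edgeR test. That test called 7.01% of all genes tested, 2.75% higher and 4.26% lower. Among cardiomyocyte markers 1 of 8 was called, Actc1, with a log2 fold change of −0.38. Among atrial markers 2 of 7 were higher (Sln, 0.75, and Dkk3, 0.73), among endothelial markers 2 of 10 were lower (Tie1, −0.16, and Esam, −0.23), and among fibroblast markers 2 of 7 were higher (Pdgfra, 0.24, and Lum, 0.27). The pericyte marker Rgs5 was lower (−0.18), 1 of 7 mural markers, and the fatty acid binding protein gene Fabp4 was lower (−0.24), 1 of 5 adipocyte markers, while the median of the adipocyte list was 0.84. No marker was called of arterial and endocardial cells (6 tested), lymphatic endothelium (5), macrophages (6), Schwann cells and neurons (6 of 8 tested), epicardium (5) or erythroid cells and lymphocytes (4 of 6 tested). Arterial and endocardial markers summed to 135 to 170.2 CPM in training and 108 to 138 CPM in sedentary hearts (exact two-sided permutation test, p = 0.0159, 0.155 after Benjamini-Hochberg adjustment over 13 lists). The adipocyte markers summed to 384 to 484 CPM in training and 446 to 538 CPM in sedentary hearts (exact two-sided permutation test, p = 0.0476, 0.206 after adjustment). Of these 5 markers 4 had a log2 fold change above 0 and only Fabp4 was below, so that this sum went against most of its list. Schwann cell and neuron markers summed to 13.1 to 19.2 CPM in training and 10.3 to 15.3 CPM in sedentary hearts (exact two-sided permutation test, p = 0.0794, 0.206 after adjustment). No summed level passed after adjustment over the 13 lists.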
